A study of Mus musculus with 45 samples.

Results

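The ileum of mice that lack FADD in intestinal epithelial cells and MLKL in every cell (FADD IEC-KO Mlkl -/-) was compared with the ileum of floxed control mice (Fadd fl/fl). The comparison asks which expression differences are present in FADD-deficient ileum when MLKL, the executioner of necroptosis, is also missing. The group means compared rest on 10 of the 45 arrays of the series, chosen by the genotype in the sample titles, with 5 mice per group and 1 array per mouse. The spread of each gene was estimated over all 45 arrays. Fadd fl/fl mice carry floxed Fadd alleles without deletion, IEC-KO marks deletion in intestinal epithelial cells, and -/- marks loss in all cells. The Cre driver is not given in the sources used here, and no group that lacks MLKL alone was analysed here. Other groups of 5 mice are set beside these. FADD IEC-KO mice lack epithelial FADD only, FADD IEC-KO RIPK3 IEC-KO mice lack FADD and RIPK3 in the epithelium, and FADD IEC-KO Zbp1 -/- mice lack epithelial FADD and ZBP1 in all cells. CASP8 IEC-KO Mlkl -/- mice lack epithelial caspase-8 and MLKL in all cells, with Casp8 fl/fl as their floxed control. A plot also shows the FADD IEC-KO CASP8 IEC-KO Mlkl -/- mice, which by their titles lack both partners and MLKL, and the CASP8 IEC-KO mice. For the former, the genotype label names only CASP8 IEC-KO Mlkl -/-, and the titles were used. The description label puts the mice at 11 weeks of age, while a source label gives a wider range. The mice were fed chow in a facility free of specific pathogens, and their sex was not given. RNA came from whole ileum, which also holds connective tissue, muscle, vessels and immune cells that keep the floxed genes.

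Values are log2 intensities as deposited, so a difference of 1 is a 2-fold change. Differences were tested with limma for 19494 genes, and a gene is called changed where its p, adjusted over all genes by the Benjamini-Hochberg method, is under 0.05. Errors of differences are standard errors (SE) of the fit. Within whole tissue, fewer cells of a type and less RNA per cell cannot be told apart.

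FADD is the adaptor that brings caspase-8 to death receptors such as those for TNF. Caspase-8 in this complex starts apoptosis and also cleaves RIPK1 and RIPK3. When it is missing, RIPK3 can phosphorylate MLKL, which then permeabilises the plasma membrane in necroptosis, and the sensor ZBP1 can engage RIPK3 through a shared motif. In the small intestine, epithelial loss of FADD or caspase-8 is known for the death of Paneth cells, the secretory cells at the crypt base that make lysozyme and alpha-defensins.

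Fadd had log2 intensities of 7.61, 7.56, 7.49, 7.46 and 7.53 in the Fadd fl/fl mice (replicates 1 to 5). In the FADD IEC-KO Mlkl -/- mice they were 5.98, 6.19, 6.46, 5.99 and 5.94. The groups did not overlap, and Fadd fell by 1.42 ± 0.17 on the log2 scale (limma, adjusted p = 4.25e-07, 2.67-fold lower). Mlkl was at 8.31, 9.09, 8.89, 8.70 and 8.32 in Fadd fl/fl and at 7.89, 8.12, 8.0, 7.85 and 8.39 in FADD IEC-KO Mlkl -/-. These ranges overlapped, because replicate 5 of the mutants exceeded 2 controls. Mlkl fell by 0.61 ± 0.20 (adjusted p = 0.036), a call that was lost without any of Fadd fl/fl replicates 2, 3 and 4 or mutant replicates 1, 2, 3 and 4. The place of its probe relative to the deleted part of the gene is not known here, so Mlkl is a weak check of the label. Casp8 (0.01 ± 0.14, adjusted p = 0.975), the kinase gene Ripk3 (0.47 ± 0.16, adjusted p = 0.0561) and Zbp1 (0.78 ± 0.29, adjusted p = 0.0801) were not called.

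Between FADD IEC-KO Mlkl -/- and Fadd fl/fl, 2040 of 19494 genes were called (10.5%), 803 higher (4.12%) and 1237 lower (6.35%). Of these, 174 differed at least 2-fold (0.893%), 68 of them higher and 106 lower. The 5 mutant and 5 control values did not overlap in 1922 genes (9.86%), and 1392 genes (7.14%) were both called and without overlap. The shares of 4.12% higher and 6.35% lower are the background for the counts in gene lists of this comparison below. All FADD IEC-KO Mlkl -/- mice have title numbers under 100, against 2 of the Fadd fl/fl mice (replicates 1 and 2). The other 3 controls are numbered 200 and over, and the labels do not say what the numbers mean. Restricted to numbers under 100, with 5 mutants and 2 controls, 507 genes were called. Leaving out Fadd fl/fl replicate 5 left 1220 calls. Fadd fl/fl replicate 1 stood apart in Paneth cell genes, and replicates 1 and 5 together were low in several interferon-gamma and antigen presentation genes, as given with those genes. Y-linked genes were high in 3 of 5 mice of either group, and the clock index, a difference of clock gene levels that follows the time of day, ran from -1.33 to 1.4 in the mutants and from -1.72 to 1.99 in the controls. Ileal enterocyte markers had group means between 11.4 and 12.7 in both groups, and markers of pancreas stayed at 6.21 or less. Against the other floxed group, Fadd fl/fl differed in 1 gene (0.00513%), the pseudogene Pisd-ps3, which was not called in the mutant comparison (-0.04 ± 0.19).

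**Figure D1:**
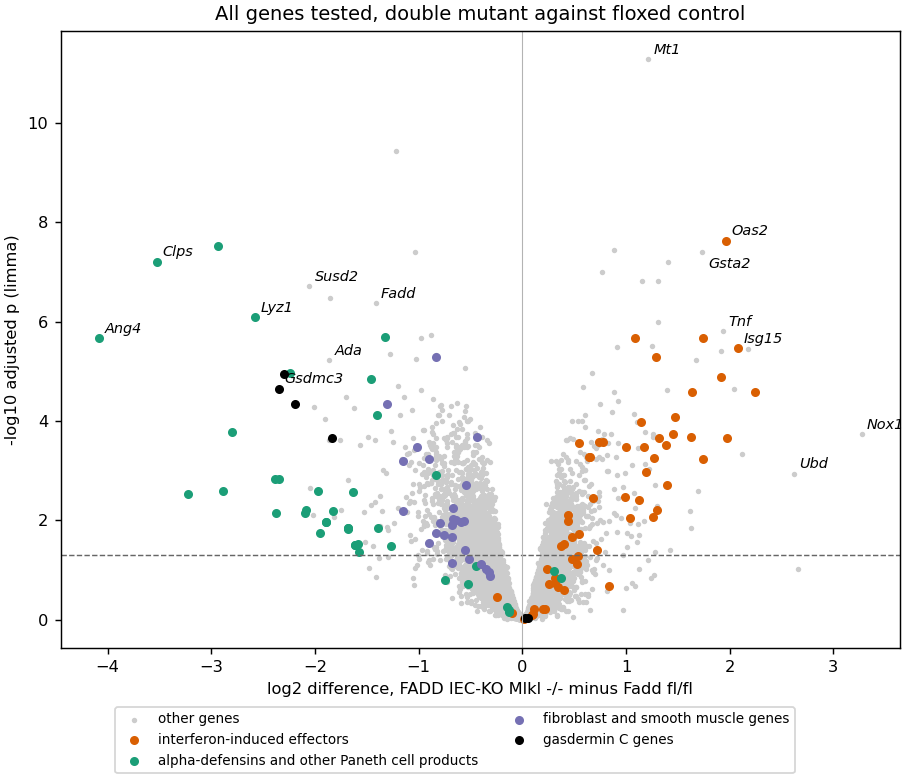
Log2 difference between FADD IEC-KO Mlkl -/- and Fadd fl/fl (x axis) against -log10 of the adjusted p from limma (y axis) for 19494 genes, 5 mice per group; each point is a gene, colours mark gene lists and the dashed line is an adjusted p of 0.05. Interferon-induced effectors lie to the right, with 39 of 57 above the line, and Paneth cell genes to the left, led by Ang4 at -4.08.

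The antiviral genes that interferons induce were higher in FADD IEC-KO Mlkl -/- ileum. Of 63 listed effectors, 57 had a probe, 39 rose and 0 fell, against 4.12% of all genes that rose. The median difference of the 57 genes was 0.74 on the log2 scale, against 0.00 for all genes. The mean level of the list ran from 7.12 to 7.57 in the control mice and from 7.98 to 8.60 in the mutants, without overlap. Isg15, a ubiquitin-like modifier of proteins, was at 5.90, 5.96, 6.07, 5.63 and 5.24 in Fadd fl/fl and at 7.25, 8.70, 7.77, 7.14 and 8.34 in the mutants. All mutants lay above all controls, with replicates 2 and 5 highest, and Isg15 rose by 2.08 ± 0.28 (adjusted p = 3.44e-06, 4.23-fold). Oas2, an oligoadenylate synthetase that activates RNA decay, was at 5.86, 5.76, 5.70, 5.42 and 5.33 in the controls and at 7.0, 8.37, 7.51, 7.24 and 7.75 in the mutants. Mutant replicate 2 was again the highest, and Oas2 rose by 1.96 ± 0.20 (adjusted p = 2.35e-08). Trim30a was at 6.38, 6.55, 6.91, 5.84 and 5.89 against 7.83, 9.02, 8.18, 7.67 and 8.73, also without overlap, and rose by 1.97 ± 0.35 (adjusted p = 0.000223). The largest rise in the list was that of the schlafen gene Slfn4 (2.25 ± 0.34). It was followed, after Isg15, Trim30a and Oas2, by Phf11d (1.91 ± 0.28), the virion tether Bst2 (1.75 ± 0.23) and the ISG15 protease Usp18 (1.74 ± 0.34). Mx1, an antiviral GTPase, was among the 18 that were not called (0.53, adjusted p = 0.075), and so was Ifitm1 (-0.24, adjusted p = 0.35); both were named after their values were seen. With title numbers under 100 alone, 22 of the 57 were called higher, and without single mice 35 to 41.

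Promoter sequences of the effectors are shown because the members of this list moved together. Promoters here are the RefSeq stretches of 300 bases, 250 before and 50 after a gene's start, in build GRCm38.p6. They were searched on both strands for TTTC followed by any 2 bases and TTTC again, the core letters of the interferon-stimulated response element, the motif that interferon-activated transcription factors bind. Of the 46 effectors with a promoter in that table, 21 (45.7%) held a match, against 3.99% of the 27025 genes in the table. The 5 genes printed have the largest differences among the called genes of the list with a match before the gene's start. Phf11b was taken in by this rule after its value was seen (1.39). Each line reads 5′ to 3′ on the gene's own strand, here the minus strand, and capitals mark the matches, which overlap in Isg15 and Bst2.
Isg15, chr4:156200862-156200921: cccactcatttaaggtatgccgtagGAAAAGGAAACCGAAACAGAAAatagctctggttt
Trim30a, chr7:104465195-104465254: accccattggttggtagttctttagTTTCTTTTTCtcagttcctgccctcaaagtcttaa
Bst2, chr8:71537568-71537627: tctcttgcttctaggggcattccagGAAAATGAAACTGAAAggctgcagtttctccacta
Rsad2, chr12:26456538-26456597: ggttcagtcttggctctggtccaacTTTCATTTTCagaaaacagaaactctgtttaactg
Phf11b, chr14:59341346-59341405: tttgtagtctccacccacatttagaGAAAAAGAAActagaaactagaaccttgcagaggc
The 21 genes with a match had a median difference of 1.09 and 18 were called, and the 25 without a match had a median of 0.45 and 14 were called. A match describes letters in this window and not a bound site.

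Interferon genes themselves did not pass the test. Of 16 measured interferon genes 0 were called by limma, and 0 had an unadjusted p under 0.05, with a median difference of 0.03; the most highly expressed on these arrays, Ifna5, differed by 0.09 ± 0.12 (adjusted p = 0.715). The interferon genes were dim, with list levels of at most 5.09 in the mutants and 5.16 in the controls, below all array medians. After a filter on dim genes 3 of the 16 remained, so changes in interferon genes could be missed. Of 19 receptors and signalling factors, 2 rose and 2 fell. Irf7, the transcription factor that amplifies interferon responses, rose by 0.92 ± 0.17 (adjusted p = 0.000277) and Stat2, part of the factor that binds response elements, by 0.60 ± 0.17 (adjusted p = 0.0142). The Stat2 call was lost without Fadd fl/fl replicate 5. Both chains of the receptor for lambda interferons fell. Ifnlr1 was at 7.62, 7.32, 7.26, 7.22 and 7.76 in the controls and at 6.41, 6.54, 6.60, 6.55 and 6.93 in the mutants, without overlap, and fell by 0.83 ± 0.11 (adjusted p = 4.68e-06), while Il10rb, which the interleukin-10 and interleukin-22 receptors share, fell by 0.34 ± 0.07 (adjusted p = 0.00161). Of 16 nucleic acid sensors, 4 rose and 1 fell. The RNA sensors Dhx58 (1.11 ± 0.21) and Ddx58, which encodes RIG-I (0.77 ± 0.15), and the DNA sensors Aim2 (0.81 ± 0.16) and Ifi204 (0.64 ± 0.16) rose, and the TLR3 adaptor Ticam1 fell by 0.41 ± 0.09.

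Genes known as targets of interferon-gamma and the antigen presentation genes of class I were higher in part. Of 17 interferon-gamma genes, 5 rose and 0 fell, with a median of 0.72 and a positive difference in all 17. Ubd, a ubiquitin-like modifier, was at 4.16, 6.37, 6.45, 6.42 and 4.41 in Fadd fl/fl and at 8.16, 7.84, 8.45, 8.06 and 8.38 in FADD IEC-KO Mlkl -/-. The mutants lay close together above all controls, among which replicates 1 and 5 were far below the other 3, and Ubd rose by 2.62 ± 0.54 (adjusted p = 0.00116). Ido1, which degrades tryptophan, rose by 1.69 ± 0.38, the GTPase genes Iigp1 and Irgm1 by 1.43 ± 0.46 and 1.04 ± 0.28, and the chemokine Cxcl11 by 0.99 ± 0.20. Without Fadd fl/fl replicate 5 the count of 5 fell to 3; Irgm1 was lost without that mouse, and Iigp1 without it, without control replicate 1 or without any of mutant replicates 1, 2, 4 and 5. Of 19 class I genes, 9 rose and 0 fell, with a median of 0.36. Psmb8, a subunit of the immunoproteasome, was at 8.10, 9.27, 9.25, 9.18 and 8.08 in the controls and between 9.78 and 10.12 in the mutants, and rose by 1.18 ± 0.31 (adjusted p = 0.0104). The low controls were again replicates 1 and 5. The subunit Psmb9 (1.01 ± 0.29), the peptide transporter Tap1 (1.0 ± 0.32), the class I gene H2-T22 (0.74 ± 0.17) and the proteasome activator Psme2 (0.54 ± 0.14) followed. Without Fadd fl/fl replicate 5 only 3 class I genes were called, and without replicate 1 only 5. Psmb8 was lost without control replicate 5, Psmb9 without replicate 1 or 5, and Tap1 without either or without any of mutant replicates 2 to 5. With title numbers under 100 alone, 1 class I gene and 2 interferon-gamma genes were called. Class II genes gave 0 calls of 10, and 0 at an unadjusted p under 0.05, with a median of 0.38 and H2-Ab1 at 0.39 ± 0.36 (adjusted p = 0.577). The median of the MHC class II pathway was 0.13 without Fadd fl/fl replicate 1, 0.73 with title numbers under 100 alone and 0.10 with Casp8 fl/fl as the control.

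Products of Paneth cells were lower in FADD IEC-KO Mlkl -/-, and they hold the largest falls of the comparison. Of 22 alpha-defensin genes, 0 rose and 21 fell, against 6.35% of all genes that fell, with a median of -1.75. Of 18 other Paneth cell products 11 fell, with a median of -1.29. Ang4, a secreted ribonuclease with antimicrobial activity, was at 9.56, 11.51, 11.77, 11.42 and 11.95 in Fadd fl/fl and at 8.96, 6.96, 6.27, 7.36 and 6.26 in the mutants. Control replicate 1 and mutant replicate 1 came near each other without crossing, and Ang4 fell by 4.08 ± 0.54 on the log2 scale (adjusted p = 2.13e-06, 16.9-fold lower). Lyz1, the lysozyme of Paneth cells, was at 11.76, 12.44, 12.48, 12.57 and 12.53 against 10.72, 9.74, 8.96, 10.03 and 9.46. It fell by 2.58 ± 0.32 (adjusted p = 8.20e-07) without overlap, with the lowest control and the highest mutant again in replicates 1. Clps, colipase, fell by 3.52 ± 0.39 and the lipase-like Pnliprp2 by 2.94 ± 0.31. Both are also products of the exocrine pancreas. A list of other pancreas genes, which includes the insulin gene Ins2, gave 0 calls of 11, and 0 at an unadjusted p under 0.05. These genes were dim, with list levels of at most 5.63 in the mutants and 5.69 in the controls. Such levels lie below all array medians, so changes in these genes could be missed. The lectin Itln1 fell by 2.24 ± 0.32. The mucosal pentraxins overlapped between groups. Mptx1 was at 6.97 in control replicate 1 and at 11.17, 11.43, 11.13 and 10.66 in the other controls, against 9.12, 6.78, 5.87, 7.05 and 6.41 in the mutants. It fell by 3.23 ± 0.73 (adjusted p = 0.00301) and Mptx2 by 2.88 ± 0.65 (adjusted p = 0.00263). The mean level of the 18 products was 7.65 in control replicate 1, against 8.99 at the highest in the controls, and between 6.83 and 7.65 in the mutants. Members not called include the matrix protease Mmp7, which processes the defensins (-0.52, adjusted p = 0.19), and the Wnt ligand Wnt3 (-0.14, adjusted p = 0.55), both named after their values were seen.

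Among the alpha-defensins, peptides that Paneth cells store in granules and that kill bacteria, Defa28 was at 8.10, 8.4, 8.50, 8.19 and 8.22 in the controls and at 6.53, 5.39, 4.60, 6.31 and 4.57 in the mutants. The mutants spread over a wider range than the controls and lay below all of them, and Defa28 fell by 2.80 ± 0.48 (adjusted p = 0.000164, 6.96-fold lower). Defa26 (-2.38 ± 0.51), Defa34 (-2.37 ± 0.60), Defa41, Defa43 and Defa37 followed. Defa24 was at 12.32, 12.58, 12.66, 12.56 and 12.56 against 11.82, 11.04, 10.65, 11.23 and 10.95 and fell by 1.39 ± 0.39 (adjusted p = 0.0144). Defa25 alone was not called (-0.74, adjusted p = 0.16). These genes are close in sequence, so a probe may bind several of them. Defa17 and Defa3 had the same values on every array, as had Defa2 with Defa33 and Defa20 with Defa32, and each pair is a single measurement. The list level did not overlap, at 11.2 to 11.6 in the controls and 8.86 to 10.5 in the mutants. Without single mice 16 to 21 alpha-defensins were called, but with title numbers under 100 alone, where 2 controls remain, 2 were called, and 7 of the other Paneth cell products, whose median was then -0.76. With Casp8 fl/fl as the control, 10 of the other Paneth cell products were called lower and 2 higher, with a median of -0.71.

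Stretches of alpha-defensin promoters are shown for the letters that they share. The RefSeq promoter table held 12 of the 22 genes. It was searched on both strands for CTTTGAT, the core of the site for T-cell factors, through which Wnt signals act on Paneth cell genes. Of the 12 promoters 11 (91.7%) held a match, against 4.29% of all genes in the table, with windows of the same length. The lines below are the 4 called genes with the largest falls among those with a match before the gene's start. They are on the plus strand, build GRCm38.p6, with the match in capitals as its reverse complement. Defa35 (-1.95) was added by this rule after its value was seen.
Defa28, chr8:21582918-21582974: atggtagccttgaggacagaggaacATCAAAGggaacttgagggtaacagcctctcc
Defa41, chr8:21201424-21201480: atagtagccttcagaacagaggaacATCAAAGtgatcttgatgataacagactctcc
Defa37, chr8:21565234-21565290: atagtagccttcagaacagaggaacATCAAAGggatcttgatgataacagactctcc
Defa35, chr8:21064886-21064942: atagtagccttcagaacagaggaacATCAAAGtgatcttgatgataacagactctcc
The stretches around the match are alike in these genes, so the matches are not independent of each other, and no statement on binding follows from them.

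**Figure D2:**
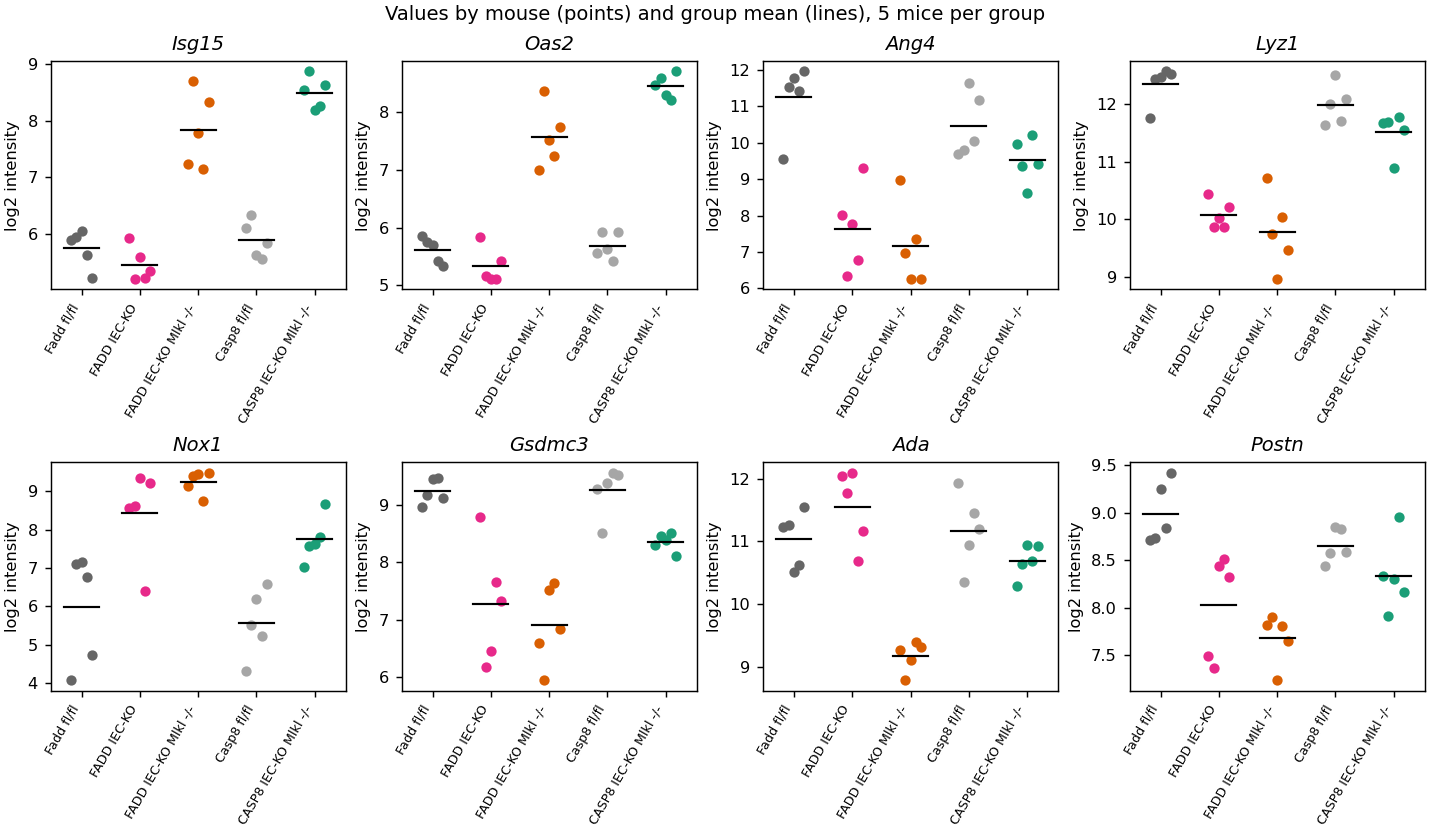
Log2 intensity (y axis) of 8 genes in single mice (points) with the group mean (line), 5 mice in each of the groups Fadd fl/fl, FADD IEC-KO, FADD IEC-KO Mlkl -/-, Casp8 fl/fl and CASP8 IEC-KO Mlkl -/- (x axis). Of the groups drawn, Isg15 and Oas2 are high in FADD IEC-KO Mlkl -/- and CASP8 IEC-KO Mlkl -/-, while Ang4 and Lyz1 are low in FADD IEC-KO and FADD IEC-KO Mlkl -/-, and Ada is low in FADD IEC-KO Mlkl -/-, where it lies between 8.79 and 9.40.

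Several inflammatory and epithelial defence genes rose. Nox1, the NADPH oxidase of the gut epithelium, was at 4.07, 7.11, 7.15, 6.77 and 4.73 in Fadd fl/fl and at 9.13, 9.39, 9.45, 8.74 and 9.49 in FADD IEC-KO Mlkl -/-. Controls 1 and 5 lay well below the other controls, and every mutant lay above all of them. Nox1 rose by 3.27 ± 0.57 (adjusted p = 0.000183, 9.66-fold), the largest called rise. Tnf, the death receptor ligand, was at 4.57, 5.28, 4.80, 5.35 and 4.41 against 6.96, 6.56, 6.72, 6.95 and 6.90 and rose by 1.93 ± 0.25 (adjusted p = 1.55e-06) without overlap. Il1rn, which encodes the antagonist of the interleukin-1 receptor, was between 5.33 and 5.66 in the controls and between 6.89 and 7.97 in the mutants and rose by 2.12 ± 0.40 (adjusted p = 0.00046). Of 30 measured cytokines and chemokines 3 rose and 0 fell, against 4.12% of all genes that rose and 10.5% called in either direction. The last of the 3 was Cxcl16 (0.36), which was lost without any of control replicates 2, 3 and 5 or mutant replicates 2 to 5. Il1b (0.10, adjusted p = 0.89) and Il6 (0.35, adjusted p = 0.15) were not called. Of 13 NF-kB genes 3 rose, the subunit Nfkb2 from 7.27 to 7.51 in the controls up to 8.14 to 8.48 in the mutants (0.88 ± 0.09, adjusted p = 3.63e-08), the inhibitor Nfkbia (0.59 ± 0.11) and the ubiquitin ligase Birc3 (0.30 ± 0.10). Birc3 lost its call without any of control replicates 1, 4 and 5 or mutant replicates 2 to 5. Of 23 genes of death receptor signalling and necroptosis 3 rose, Tnf, Birc3 and the TNF receptor adaptor Traf2 (0.61 ± 0.10, adjusted p = 0.000135).

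Of 20 gasdermin and inflammasome genes 4 fell and 1 rose. The gasdermin C genes, which encode pore-forming proteins of the gut epithelium, fell together. Gsdmc3 was at 8.97, 9.18, 9.46, 9.48 and 9.13 in the controls and at 6.58, 5.94, 7.51, 7.64 and 6.83 in the mutants, and fell by 2.35 ± 0.35 (adjusted p = 2.26e-05, 5.08-fold lower). Gsdmc2 (-2.30 ± 0.33), Gsdmc4 (-2.19 ± 0.34) and Gsdmc (-1.83 ± 0.33) fell as well. These are near copies, so their probes may not be independent. Gsdmd, the target of inflammatory caspases, was not called (-0.18, adjusted p = 0.24), while Casp1 rose by 0.36 ± 0.10. Of 21 antimicrobial lectins, oxidases and related genes 3 rose, Nox1, Sprr1a (1.26 ± 0.22) and the nitric oxide synthase Nos2 (1.05 ± 0.31), and 3 fell. Il22ra1, the epithelial receptor chain for interleukin-22, was at 9.64, 9.91, 9.88, 9.83 and 9.89 against 8.38, 8.69, 8.65, 8.55 and 8.80, and fell by 1.22 ± 0.11 (adjusted p = 3.61e-10). The lectins Reg3a (-1.2 ± 0.29) and Reg4 (-1.07 ± 0.33) fell, and the Reg4 call was lost without control replicate 5 or without mutant replicate 1 or 5. Reg3b (0.07, adjusted p = 0.79) and Reg3g (0.25, adjusted p = 0.47), which interleukin-22 induces, were not called. Mt1, a metallothionein that binds zinc, was at 11.55, 11.39, 11.10, 11.46 and 11.33 in the controls and at 12.63, 12.49, 12.52, 12.65 and 12.61 in the mutants. It rose by 1.22 ± 0.09 (adjusted p = 5.17e-12), the only called gene of 4 metallothioneins, and Mt2 did not pass (0.28, adjusted p = 0.54).

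Single genes for the handling of extracellular purines were lower in the mutants, but not the list as a whole. Of 14 measured, 5 fell, 1 rose and 8 were not called, with a median of -0.14 and a positive difference in 5. Ada, adenosine deaminase, was at 11.24, 11.25, 10.51, 10.62 and 11.54 in Fadd fl/fl and at 9.26, 8.79, 9.10, 9.40 and 9.32 in FADD IEC-KO Mlkl -/-. The groups were more than 1 log2 unit apart, and Ada fell by 1.86 ± 0.26 (adjusted p = 5.98e-06, 3.63-fold lower). Nt5e, the ectonucleotidase that makes adenosine from AMP, fell by 1.68 ± 0.36 (adjusted p = 0.00152), and the concentrative nucleoside transporter Slc28a2 fell by 1.42 ± 0.34 (adjusted p = 0.00427). The equilibrative transporter Slc29a1 fell by 0.53 ± 0.13, and the transporter Slc28a3 rose by 0.64 ± 0.14. The 5 falls were counted in every fit that left out 1 mouse, and 3 with title numbers under 100 alone.

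In the lists of enterocyte functions some genes were called and most were not. Differences were negative in 12 of 17 brush border and sugar genes (median -0.14) and in 13 of 19 lipid absorption genes (median -0.205). They were negative in 7 of 12 bile acid and cobalamin genes (median -0.11), against a median of 0.003 over all genes. Over all genes 6.35% fell and 4.12% rose. Of 17 brush border and sugar genes 4 fell, the trehalase Treh (-1.14 ± 0.28), the metalloprotease Mep1a (-1.05 ± 0.19), the intestinal alkaline phosphatase Alpi (-0.76 ± 0.17) and the ketohexokinase Khk (-0.58 ± 0.17). Sucrase-isomaltase, Sis, was not called (0.05, adjusted p = 0.93), and the Khk call was lost without any of control replicates 1, 2 and 5 or mutant replicates 2, 3 and 5. Of 19 genes of lipid absorption 4 fell and 1 rose. Npc1l1, the cholesterol importer, was between 11.46 and 11.89 in the controls and between 10.56 and 10.91 in the mutants and fell by 0.98 ± 0.13 (adjusted p = 2.13e-06). The sterol exporter Abcg8 fell by 0.65 ± 0.14, the apolipoprotein genes Apoa1 and Apob by 0.42 ± 0.10 and 0.39 ± 0.07. Mttp, which loads lipid onto apolipoprotein B, was called higher (0.34 ± 0.11, adjusted p = 0.0386), but not without control replicate 4 or 5 or mutant replicate 1, 3 or 5, and with Casp8 fl/fl as the control its difference was -0.002. Of 12 ileal bile acid and cobalamin genes 2 fell, the cobalamin carrier Tcn2 (-0.81 ± 0.13) and the bile acid exporter subunit Slc51a (-0.42 ± 0.13). Slc51a was not called without control replicate 1 or 5 or mutant replicate 1, 2 or 3. The bile acid importer Slc10a2 was not called (-0.17, adjusted p = 0.32).

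Of 28 xenobiotic enzymes 5 rose and 5 fell. The glutathione transferase Gsta2 was between 8.18 and 8.80 in the controls and between 9.97 and 10.5 in the mutants, and rose by 1.74 ± 0.19 (adjusted p = 3.89e-08, 3.34-fold). Akr1b8, an aldo-keto reductase, rose by 1.12 ± 0.32, a call that was lost without control replicate 1 or 5 or mutant replicate 2. The cytochromes P450 Cyp3a25 and Cyp3a11 fell by 2.05 ± 0.45 and 1.81 ± 0.47. Cyp3a11 was at 7.44 and 7.58 in control replicates 1 and 5, between 4.38 and 5.34 in the other controls and between 3.92 and 4.38 in the mutants, and the call was lost without replicate 5. The count of falling xenobiotic enzymes was 3 without control replicate 1 or 5 or mutant replicate 2. Other large changes outside the lists were falls of the membrane protein gene Susd2 (10.54, 10.15, 9.77, 10.11 and 10.75 against 8.33, 7.71, 7.94, 8.76 and 8.31) and of the tight junction gene Cldn8 (-2.01 ± 0.32, adjusted p = 5.30e-05). Susd2 fell by 2.05 ± 0.24 (adjusted p = 1.92e-07) without overlap. Hsd17b6, a retinol and steroid dehydrogenase, rose by 2.04 ± 0.31 (adjusted p = 2.26e-05), from 3.92 to 5.16 in the controls up to 5.85 to 7.17 in the mutants.

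Genes of the tissue under the epithelium were lower. Of 13 fibroblast genes 11 fell, with a median of -0.76, and of 13 smooth muscle genes 9 fell, with a median of -0.67; 0 of either list rose. Postn, a matrix protein of fibroblasts below the crypts, was at 8.71, 8.73, 9.25, 8.83 and 9.42 in Fadd fl/fl and at 7.82, 7.90, 7.24, 7.80 and 7.66 in FADD IEC-KO Mlkl -/-. It fell by 1.30 ± 0.20 (adjusted p = 4.46e-05) without overlap. The collagen genes Col5a1 and Col6a2 fell by 1.01 ± 0.19 and 0.83 ± 0.12, and the matrix genes Lum and Sparc each by 0.90, with SE of 0.28 and 0.17. The Lum call was lost without control replicate 3 or 5 or mutant replicate 3 or 5. In smooth muscle, the hedgehog-binding protein gene Hhip (-1.16 ± 0.29), the calponin gene Cnn1 (-1.15 ± 0.23) and the enteric actin gene Actg2 (-0.83 ± 0.24) fell. Without Fadd fl/fl replicate 5, Actg2, Mylk and Synpo2 were not called and the count of smooth muscle falls was 4. Of 12 endothelial genes 5 fell, with a median of -0.33, among them Eng (-1.04 ± 0.21), Kdr (-0.81 ± 0.20) and Tek (-0.81 ± 0.19). With title numbers under 100 alone, 3 fibroblast, 0 smooth muscle and 0 endothelial genes were called. With Casp8 fl/fl as the control, 6 fibroblast, 11 smooth muscle and 0 endothelial genes fell. How much muscle and connective tissue each piece of ileum held was not measured, and the part of sampling in these falls was not tested.

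Most other cell types showed few calls. Enteroendocrine genes fell in 5 of 19, a count that depended on single mice, as given below. Among all genes 6.35% fell and 4.12% rose. Goblet cells gave 0 of 18 by limma (3 at an unadjusted p under 0.05), with their mucin Muc2 at -0.10 ± 0.06 (adjusted p = 0.361). Stem cell genes gave 0 of 11 (2 unadjusted), with Lgr5 at -0.18 (adjusted p = 0.37), and cell cycle genes 0 of 23 (10 unadjusted), with a median of 0.27 and Mki67 at 0.27 (adjusted p = 0.12); with Casp8 fl/fl as the control 9 of the 23 were called higher. Of 19 enteroendocrine genes 5 fell, Chga by 0.68 ± 0.17, Scg2 by 0.58, Scg3 by 0.54, Sst by 0.53 and Tph1 by 0.51. That count was 1 without control replicate 5, 2 without mutant replicate 3, and 3 without any of control replicates 1, 3 and 4 or mutant replicates 4 and 5, while Chga was called in each of these fits. Among 12 tuft cell genes Dclk1 fell by 0.49, a call lost without control replicate 5. Lymphocyte, B and plasma cell, dendritic cell and neutrophil lists gave 0 calls of 17, 14, 10 and 12, and at an unadjusted p under 0.05 they gave 0, 2, 1 and 1. Dendritic cell and neutrophil genes were dim, with list levels of at most 5.81 and 5.10 in mutants and controls. These levels lie below all array medians, so changes in these genes could be missed. Of 14 macrophage genes 12 had a negative difference, with a median of -0.29, and 6 had an unadjusted p under 0.05 by limma. With Casp8 fl/fl as the control the median was 0.04. After adjustment 1 of the 14 fell. It was Lyz2, whose sequence resembles that of the Paneth cell lysozyme Lyz1, at -1.90 ± 0.32 (adjusted p = 9.09e-05), while the complement gene C1qa stood at -0.41 (adjusted p = 0.20) and Csf1r at -0.32 (adjusted p = 0.28). Among 13 genes of fetal-like and regenerating epithelium 2 rose, Il1rn and Krt7 (0.41 ± 0.13). Krt7 was lost without any of control replicates 1, 3 and 4 or mutant replicates 2, 3 and 5, and Anxa1 stood at -0.73 (adjusted p = 0.172).

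**Figure D3:**
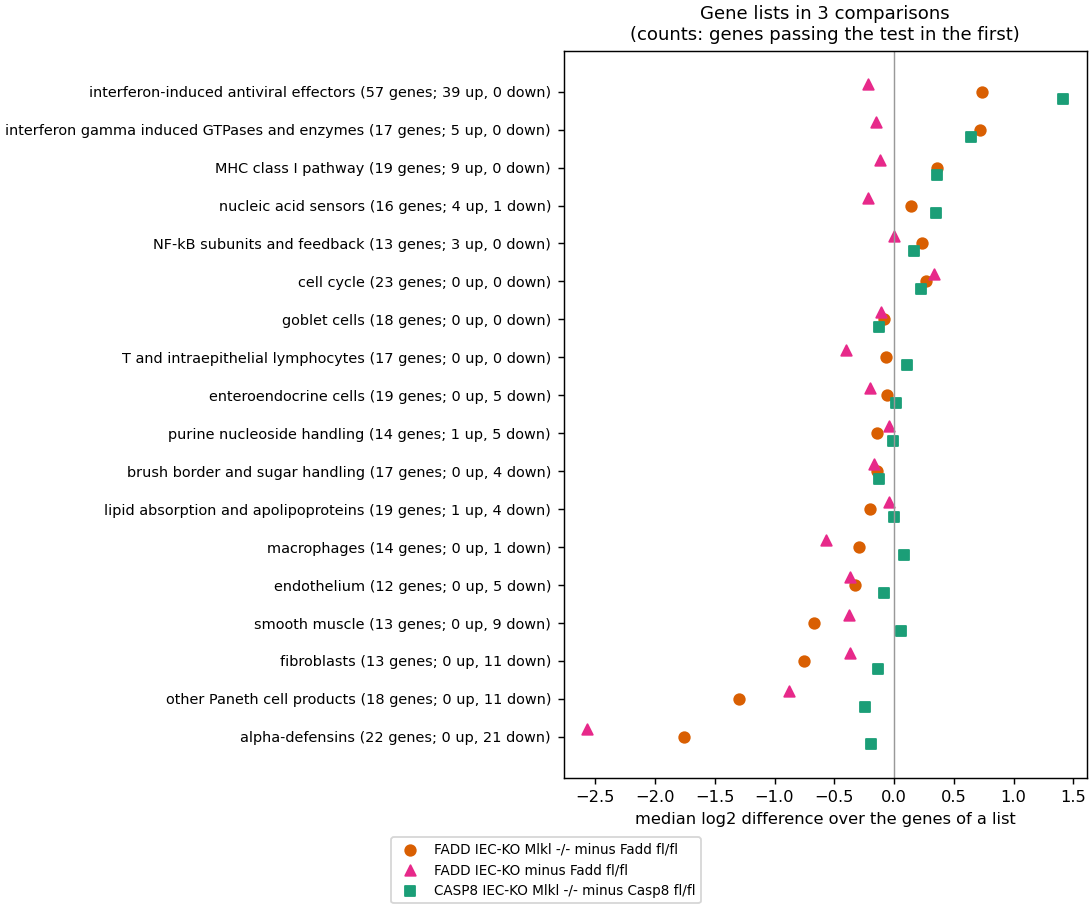
Median log2 difference over the genes of each list (x axis) in 3 comparisons (symbols) for 18 gene lists (rows); the labels give the number of genes measured and how many passed the test between FADD IEC-KO Mlkl -/- and Fadd fl/fl. For the alpha-defensins the median is -1.75 in that comparison, -2.57 for FADD IEC-KO and -0.19 for CASP8 IEC-KO Mlkl -/-, and for the interferon-induced effectors 0.74, -0.22 and 1.41.

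The changes of FADD IEC-KO Mlkl -/- were next set beside those of FADD IEC-KO, in which MLKL is present. FADD IEC-KO differed from Fadd fl/fl in 727 genes (3.73%). It shares its 5 controls with the main comparison, so the values are given side by side only. Ang4 fell by 4.08 with MLKL missing and by 3.61 with MLKL present, Clps by 3.52 and 3.36, Lyz1 by 2.58 and 2.28 and Gsdmc3 by 2.35 and 1.97, each called in both. Nox1 rose by 3.27 and 2.47, Tnf by 1.93 and 1.44, Il1rn by 2.12 and 2.77, Gsta2 by 1.74 and 1.22 and Mt1 by 1.22 and 1.16, again all called. All of these genes except Gsdmc3 fall under a naming rule that required calls in the same direction in both comparisons. Their shared calls follow from that rule and are given as values only. The alpha-defensins fell in 22 of 22 genes in FADD IEC-KO, with a median of -2.57 against -1.75. Isg15 stood at -0.29 ± 0.28 in FADD IEC-KO (adjusted p = 0.652) and Ada at 0.52 ± 0.26 (adjusted p = 0.280), while both were called in FADD IEC-KO Mlkl -/-.

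The direct test between FADD IEC-KO Mlkl -/- and FADD IEC-KO called 313 genes (1.61%), 167 higher (0.857%) and 146 lower (0.749%). Of the 57 interferon effectors 41 were higher, with a median of 0.92. Isg15 was between 5.21 and 5.94 in FADD IEC-KO, below all FADD IEC-KO Mlkl -/- mice, and Trim30a differed by 2.88 ± 0.35 (adjusted p = 6.21e-07), Isg15 by 2.37 ± 0.28 and Ubd by 2.43 ± 0.54. Of the purine genes 3 were lower, Ada by -2.38 ± 0.26 (adjusted p = 7.93e-08), Slc28a2 by -1.97 ± 0.34 and Nt5e by -1.50 ± 0.36. Susd2 was lower by -1.76 ± 0.24, Ifnlr1 by -0.79 ± 0.11 and Il22ra1 by -0.81 ± 0.11, all called. Car1 and Anxa1, which FADD IEC-KO raised over Fadd fl/fl by 3.85 ± 0.70 and 1.45 ± 0.33, were lower in FADD IEC-KO Mlkl -/- by -3.20 ± 0.70 and -2.17 ± 0.33. They did not pass against Fadd fl/fl (Car1 0.66 ± 0.70, Anxa1 -0.73 ± 0.33). For Paneth cell genes no difference was called: 0 of 22 alpha-defensins (1 at an unadjusted p under 0.05), with a median of 0.80 and Defa28 at 1.11 ± 0.48 (adjusted p = 0.356), and 0 of 18 other products (1 unadjusted), with Ang4 at -0.48 ± 0.54 (adjusted p = 0.830). Missing the threshold does not show that these genes were at the same level in the 2 genotypes. Of the fibroblast genes 2 were lower, Col5a1 and Col6a2. The count of 313 was 205 without FADD IEC-KO replicate 2.

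CASP8 IEC-KO Mlkl -/- offers a matched comparison, in which the partner of FADD is deleted in place of FADD and other mice serve as controls. CASP8 IEC-KO Mlkl -/- differed from Casp8 fl/fl in 212 genes (1.09%), 151 higher (0.775%) and 61 lower (0.313%). Genes called in both comparisons in the same direction numbered 109, which is 5.34% of the FADD IEC-KO Mlkl -/- calls and 51.4% of the CASP8 IEC-KO Mlkl -/- calls; 93 were higher and 16 lower, and 4 were called in opposite directions. Over all 19494 genes the differences correlated at Pearson r = 0.40 and Spearman rho = 0.29, as a description, since genes are not independent. Of the 57 interferon effectors 46 rose in CASP8 IEC-KO Mlkl -/- and 37 of these were also called in FADD IEC-KO Mlkl -/-. Their median was 1.41, against 0.74, and Isg15 rose by 2.59 ± 0.28 and Trim30a by 3.15 ± 0.35. Nox1 rose by 2.18 ± 0.57 and Mt1 by 0.95 ± 0.09. Paneth cell genes gave 0 calls in CASP8 IEC-KO Mlkl -/-, in 22 alpha-defensins (median -0.19, 0 at an unadjusted p under 0.05) and 18 other products (2 unadjusted), with Ang4 at -0.95 ± 0.54 (adjusted p = 0.504) and Lyz1 at -0.47 ± 0.32 (adjusted p = 0.606). The clock index ran from -2.73 to -1.80 in CASP8 IEC-KO Mlkl -/-, below the range of all mice in the other groups compared here, and its part in these values was not tested beyond the fit with the index as a covariate, which called 101 genes.

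Whether the differences themselves differed was tested as an interaction of the 2 mutant against control comparisons, which called 119 genes (0.61%), 33 higher (0.169%) and 86 lower (0.441%). The largest were falls in FADD IEC-KO Mlkl -/- relative to CASP8 IEC-KO Mlkl -/-. They were Ang4 (-3.13 ± 0.76, adjusted p = 0.0397), Clps (-2.65 ± 0.55, adjusted p = 0.0151), Pnliprp2 (-2.19 ± 0.44, adjusted p = 0.0109), Lyz1 (-2.10 ± 0.46, adjusted p = 0.0174) and Cldn8 (-1.94 ± 0.45, adjusted p = 0.0302). Of the other Paneth cell products 5 of 18 were called in the interaction, and 1 of 22 alpha-defensins, with Defa28 at -2.35 ± 0.68 (adjusted p = 0.104). The median interaction of the 22 alpha-defensins was -1.50, and that of the 18 other products was -1.05. Of the fibroblast genes 3 of 13 were called, among them Col6a2 (-0.79 ± 0.16, adjusted p = 0.015). Il22ra1 (-0.96 ± 0.15) and Npc1l1 (-1.03 ± 0.18) were lower and Gsta2 (1.26 ± 0.27) and Nfkb2 (0.58 ± 0.13) higher in the same sense. Among the interferon effectors 2 of 57 were called, both lower in the interaction, where Isg15 stood at -0.51 ± 0.40 (adjusted p = 0.684). Ada was not called (-1.38 ± 0.37, adjusted p = 0.0674). The interaction count was 56 without Fadd fl/fl replicate 5.

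**Figure D4:**
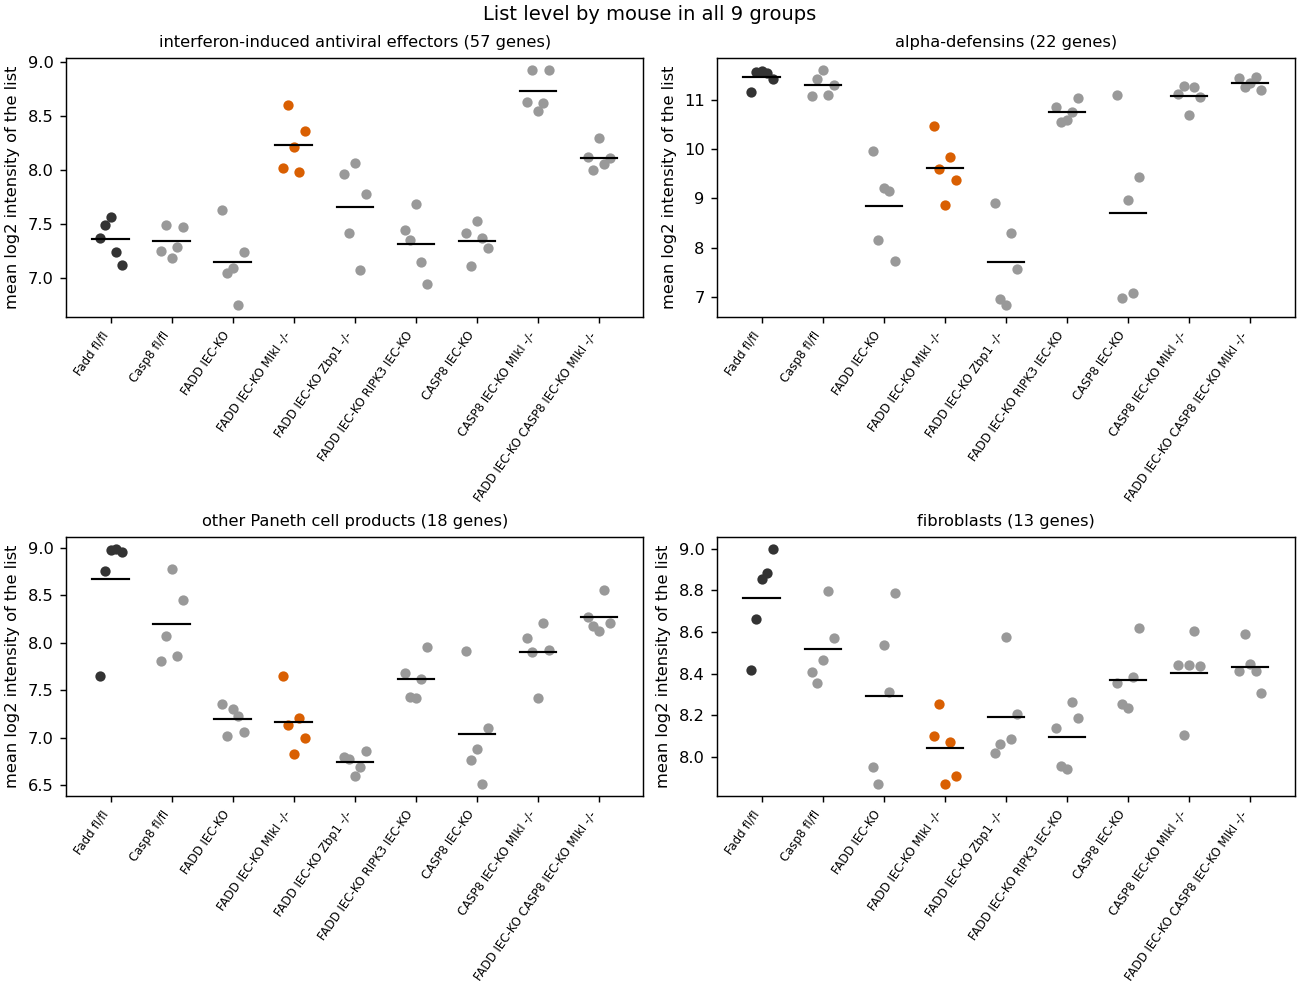
Mean log2 intensity of 4 gene lists (y axis) in each mouse (points) of all 9 groups (x axis) with the group mean (line). For the interferon-induced effectors the FADD IEC-KO Mlkl -/- mice, at 7.98 to 8.60, lie above all Fadd fl/fl mice, and for the other Paneth cell products Fadd fl/fl replicate 1, at 7.65, lies apart from the other controls.

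FADD IEC-KO Mlkl -/- was also compared with mice in which RIPK3 or ZBP1 was removed in place of MLKL. Against FADD IEC-KO RIPK3 IEC-KO, 966 genes differed (4.96%), 398 higher (2.04%) and 568 lower (2.91%). In all FADD IEC-KO RIPK3 IEC-KO mice Y-linked genes were high, against 3 of the 5 FADD IEC-KO Mlkl -/- mice. Interferon effectors were higher in FADD IEC-KO Mlkl -/- in 38 of 57 and interferon-gamma genes in 12 of 17. Nox1 was higher by 3.24 ± 0.57, Ubd by 3.09 ± 0.54 and Trim30a by 2.32 ± 0.35. Ada was lower by -2.22 ± 0.26, Susd2 by -2.02 ± 0.24, the hydroxyacid oxidase Hao2 by -2.33 ± 0.33 and the lactate transporter Slc5a12 by -2.22 ± 0.51. Of the other Paneth cell products 4 of 18 were lower, with Ang4 at -1.81 ± 0.54 and Lyz1 at -1.52 ± 0.32, and 2 of 22 alpha-defensins. The alpha-defensins had a median of -1.11, and 18 of the 22 had an unadjusted p under 0.05 by limma. Of the fibroblast genes 0 of 13 were called (2 at an unadjusted p under 0.05). The count of 966 was 442 without FADD IEC-KO RIPK3 IEC-KO replicate 5.

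Against FADD IEC-KO Zbp1 -/-, 804 genes differed (4.12%), 460 higher (2.36%) and 344 lower (1.76%). Alpha-defensins were higher in FADD IEC-KO Mlkl -/- in 21 of 22, with a median of 1.99 and Defa34 at 2.47 ± 0.60 (adjusted p = 0.0112), and so was Mptx2 at 2.61 ± 0.65 (adjusted p = 0.0134). Lyz1 (0.14 ± 0.32) and Ang4 (0.05 ± 0.54) were not called. Interferon effectors were higher in 16 of 57, with Trim30a at 1.78 ± 0.35, and Ada was lower by -1.89 ± 0.26. Smooth muscle genes were lower in 11 of 13. The count of 804 was 467 without FADD IEC-KO Zbp1 -/- replicate 5.

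FADD IEC-KO CASP8 IEC-KO Mlkl -/- mice had Paneth cell levels nearer to those of Fadd fl/fl. By their titles they lack epithelial caspase-8 in addition to epithelial FADD and MLKL. Their genotype label names only CASP8 IEC-KO Mlkl -/-, so the loss of FADD rests on the titles here. Ang4 was between 9.94 and 11.03 in these mice, above all FADD IEC-KO Mlkl -/- mice, and stood at -0.99 ± 0.54 against Fadd fl/fl (adjusted p = 0.356). Lyz1 was between 11.65 and 12.19 (-0.53 ± 0.32, adjusted p = 0.426). The level of the alpha-defensins ran from 11.2 to 11.5, and Defa28 stood at -0.07 ± 0.48 (adjusted p = 0.963). Isg15 rose by 1.75 ± 0.28 against Fadd fl/fl (adjusted p = 0.000157), and Ada did not pass (0.01 ± 0.26, adjusted p = 0.992). All 5 of these mice have title numbers of 200 and over, so genotype and number series cannot be told apart between them and FADD IEC-KO Mlkl -/-, and the difference between these 2 groups was not tested.

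Genes near the deleted loci were examined because strain sequence can travel with a targeted allele. Mutants and controls both carry targeted Fadd alleles, so the count near Fadd cannot decide this and is given as a description. Of the 50 measured genes nearest to Mlkl on chromosome 8, 25 on each side, 2 were called (4.0%), and of 33 near Fadd on chromosome 7, 3 were called (9.09%), against 10.5% of all genes. The gene next to Mlkl, the fatty acid hydroxylase Fa2h, was at 6.91, 7.53, 6.64, 6.61 and 7.31 in Fadd fl/fl and at 8.96, 9.0, 9.15, 8.47 and 9.0 in FADD IEC-KO Mlkl -/-. It rose by 1.92 ± 0.26 (adjusted p = 3.83e-06) without overlap. Fa2h also rose by 1.74 ± 0.26 in FADD IEC-KO, which keeps Mlkl, and did not pass in CASP8 IEC-KO Mlkl -/- (0.13 ± 0.26, adjusted p = 0.907). The other calls were Cmc2 (0.33) near Mlkl and Slc22a18 (-0.36), Tnfrsf23 (0.47) and Ano1 (-0.42) near Fadd. Each of these 4 was lost on leaving out 1 or more single mice.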

How the data were processed

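Ileum RNA of 45 mice was measured on whole-transcript arrays. The deposited values are log2 intensities normalized by the authors; per the submitters' processing notes Affymetrix Expression Console and Transcriptome Analysis Console were used, and the summarisation method is not given in the sources used here. Array medians lay between 6.36 and 6.44, and the number of arrays limits the precision. Of 22142 probes 19527 had 1 gene symbol and 2615 (11.8%) none; 33 genes had several probes, of which the one with the highest mean over all arrays was used, giving 19494 genes. No dim genes were removed.

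Group means were estimated together over all 45 arrays with limma 3.58.1 in R 4.3.3 (36 residual degrees of freedom, eBayes), with Benjamini-Hochberg adjustment within each comparison, after a test on simulated data. P-values set each difference against the spread between mice within groups, estimated over all 9 groups. Members and gene lists were chosen with earlier results of these data known, and no list was tested as a set.

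Named genes are the targeted genes, the 15 genes that rose most and the 15 that fell most, among those called and without overlap, up to 5 called members of each list (the brightest where none was called), the largest called differences of the other comparisons and called neighbours of Mlkl and Fadd. They also include the largest shared calls, in the same direction, of FADD IEC-KO and FADD IEC-KO Mlkl -/- against Fadd fl/fl. Genes named outside these rules are members of the lists chosen after their values were seen.

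Alternatives were fits of only the groups compared, title number series, clock index or sex index as covariates, quantile normalization, centring, a filter on dim genes, the mean of all probes, array weights, another variance prior, other controls, numbers under 100 only and leaving out each mouse. Xist had no probe, so the sex index is the mean of Y-linked genes. List counts under each alternative were added after seeing the data.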

Additional observations from a re-analysis of the deposited data

Results flagged for a closer look

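A mouse was taken to stand apart where its gap to the nearest of the other 4 mice, divided by the range of the group, passed Dixon's critical value, which by its construction marks about 1 in 20 groups of independent values. This held in 29 of the 324 groups of values examined (8.95%); these groups share the same mice and are not independent. Of the 29, 14 concern Fadd fl/fl replicate 1. This mouse was the lowest control by a wide gap for the Paneth cell genes Ang4 (9.562), Itln1 (10.934), Lyz1 (11.758), Mptx1 (6.974), Mptx2 (7.589), Defa21 (12.384) and Defa22 (12.086). It was also lowest for Lyz2 (10.162), which is listed with the macrophage genes. The same mouse was lowest for the endothelial genes Cdh5 (6.719) and Eng (7.867), for Car9 (7.747), for Lcn2 (5.665) and for Sprr1a (4.296), and highest for Ifna5 (7.372). Fadd fl/fl replicate 5 was lowest for Gata4 (6.253) and Nfkb2 (7.269) and highest for Reg4 (11.626), and replicate 2 was lowest for Synpo2 (8.446). Among FADD IEC-KO Mlkl -/- mice, replicate 1 was lowest for Ern2 (7.923) and highest for Pnliprp2 (6.686), and replicate 2 was lowest for Gzma (8.699) and Ido1 (9.897). Replicate 3 was lowest for Jchain (11.427) and replicate 5 for Tek (4.597). Replicate 4 was lowest for Fa2h (8.473), Ifi204 (7.772) and Ret (6.898) and highest for H2-Ab1 (11.632) and Khk (8.821).

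The mutant against control difference itself differed between the FADD and caspase-8 mutants that lack MLKL, by the limma interaction, for 21 of the named genes. The targeted genes were among them, Fadd at -1.44 and Casp8 at 1.522. Lower in the FADD mutants relative to the caspase-8 mutants were Ang4 (-3.128), Clps (-2.646), Pnliprp2 (-2.187), Lyz1 (-2.104), Cldn8 (-1.944), Susd2 (-1.513), Slc40a1 (-1.478), Cnn1 (-1.442), Col5a1 (-1.06), Npc1l1 (-1.032), Il22ra1 (-0.958), Abcg8 (-0.811), Col6a2 (-0.79), Tcn2 (-0.75) and Jun (-0.664). Higher were Fa2h (1.794), Slc6a8 (1.458), Gsta2 (1.264) and Nfkb2 (0.579).

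Probes with no gene symbol were left out of the comparison. Of these 2615 probes, 141 passed the same test (5.39%), 74 higher and 67 lower, against 0 between the 2 floxed groups.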

How the results depend on the processing

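No paired analysis was possible because the numbers in the titles are not shared between groups. For FADD IEC-KO Mlkl -/- against Fadd fl/fl, the 2040 calls became 1726 with only the groups compared and 507 with title numbers under 100 only. Leaving out 1 mouse gave 1220 to 1926. For FADD IEC-KO against Fadd fl/fl (727), fitting only the groups compared gave 153, a filter on dim genes 1091, the clock index 1116 and leaving out a mouse 309 (without FADD IEC-KO replicate 3) to 1090. For FADD IEC-KO Mlkl -/- against FADD IEC-KO (313) the counts were 145 with only those groups, 497 with array weights and 205 to 350 without single mice. CASP8 IEC-KO Mlkl -/- against Casp8 fl/fl (212) gave 337 with the dim filter, 101 with the clock index, 524 with array weights and 123 (without Casp8 fl/fl replicate 3) to 274. The interaction (119) gave 211 with only its groups, 70 with the title series, 232 with the dim filter, 426 with array weights and 56 to 164. Against FADD IEC-KO RIPK3 IEC-KO (966) the clock index gave 606, array weights 1456 and single mice 442 to 1029. Against FADD IEC-KO Zbp1 -/- (804) only those groups gave 323, and single mice 467 to 1019. Genes called higher made up 39.4% of the main calls, 49.3% after quantile normalization and 48.8% after centring. Of 137 called named genes, 96 were called whichever mouse was left out; 72 lost the call with numbers under 100 only, where 2 controls remain. Mttp alone changed sign, to -0.002 with Casp8 fl/fl as the control. The causes were not tested. With 5 mice per group, small differences can be missed.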

Other observations

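Some gene groups outside those above held single calls between FADD IEC-KO Mlkl -/- and Fadd fl/fl. Over all genes 4.12% rose and 6.35% fell, and small counts in such short lists say little about the lists. Among 12 genes of the unfolded protein response, the chaperone gene Hspa5 (0.36) and Creld2 (0.71) rose and Ern2 fell by 0.26; the Ern2 call was lost on leaving out most single mice. Of 7 genes typical of the proximal small intestine, the transcription factor gene Gata4 rose (0.45) and 2 iron transport genes fell. Slc40a1, the iron exporter ferroportin, was at 8.14, 8.66, 8.64, 8.70 and 8.36 in the controls and at 6.76, 6.60, 7.02, 7.07 and 6.94 in the mutants, and fell by 1.63 ± 0.26 (adjusted p = 5.43e-05), and the ferric reductase Cybrd1 fell by 0.95. The Slc40a1 call was lost with Casp8 fl/fl as the control.

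Of 16 genes of fatty acid oxidation, Acadl, an acyl-CoA dehydrogenase, and the nuclear receptor gene Pparg rose by 0.61 and 0.57, and the pyruvate dehydrogenase kinase Pdk4 fell by 0.56, a call lost without most single mice. Of 16 immediate early genes Zfp36 and Jun fell by 0.62 and 0.60. Among 10 genes of the enteric nervous system 3 fell, Snap25 (-0.86), Uchl1 (-0.59) and the receptor gene Ret (-0.34), and 1 was called without Fadd fl/fl replicate 5. Among 9 carbonic anhydrases Car9 fell by 0.49.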
